A study of Homo sapiens with 12 samples.

Results

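The transcripts of 10 chemokines that attract lymphocytes and monocytes were examined: CXCL9, CXCL10, CXCL11, CXCL16, CX3CL1, CCL2, CCL5, CCL17, CCL20 and CCL22. They were taken by gene name, with no threshold on a measured value, from a table of 58735 genes. The set was chosen with earlier results of these data known, so its counts beside the shares of all genes are descriptions. The table covers 12 poly(A) RNA-seq libraries of NCM460, a cell line labelled as normal human colonic epithelium, with 3 libraries in each of 4 groups. The first group was kept in medium, the second received TNF-α, another TNF-α with 5-OH-TMT (called Bufotenidine in the labels, a trimethylated relative of serotonin), and the fourth TNF-α after knockdown of HTRA2, a mitochondrial serine protease. All groups except medium therefore share TNF-α. Neither the dose nor the duration of TNF-α is given in the sources used here. The libraries with TNF-α alone carry no siRNA label, so transfection and loss of HTRA2 cannot be told apart, and it is not stated whether the 3 knockdown libraries came from 1 siRNA or from several. HTRA2 itself lay at 7.44, 7.18 and 7.22 FPKM in the knockdown libraries and between 13.3 and 17.2 FPKM in the other 9, and its mean fell to 0.502 of that with TNF-α alone. FPKM are fragments per kilobase of transcript, scaled to sequencing depth, so that levels can be compared between genes.

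Between 31008429 and 37624399 reads per library fell on genes. The 5 general epithelial markers (EPCAM, CDH1, KRT8, KRT18, KRT19) summed to between 2118 and 2689 FPKM, and each had a mean above 1 FPKM. None of 7 markers of colonic epithelium reached a mean of 1 FPKM, their sum stayed between 0.315 and 0.600 FPKM, and CDX2, the intestinal transcription factor, was at 0 in all 12 libraries. The epithelial label was thus borne out by its markers and the colonic label was not. Knockdown library 2 had the lowest mitochondrial share of reads, 2.95%, against 3.69% to 4.68% in the other 11.

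Chemokines are small proteins that guide leukocytes through G-protein-coupled receptors. CXCL9, CXCL10 and CXCL11 share the receptor CXCR3 of activated T cells and natural killer cells and are known as interferon-induced genes. CXCL16 and CX3CL1 are made as membrane-tethered proteins that can be shed as soluble attractants, CCL2 and CCL5 recruit monocytes and T cells, CCL17 and CCL22 share the receptor CCR4 of Th2 and regulatory T cells, and CCL20 acts through CCR6 on Th17 cells and dendritic cells. Gut epithelium under inflammation is a known source of several of them, and TNF-α acts on many of their promoters through NF-κB.

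The 250 bases before the RefSeq transcript start are shown for the 5 chemokines that had a sequence in the promoter set used. These are CXCL9, CXCL10 and CXCL11, which lie side by side on chromosome 4 and differed widely in level, and CCL20 and CCL22. Capitals mark matches to the binding motifs of NF-κB (κB), of interferon-activated factors (ISRE, a GAAA pair with 2 bases between), of STAT dimers (GAS, TTCNNNGAA) and of AP-1 (TGANTCA), all searched on both strands. The sequences are from RefSeq on GRCh38.p14 and read 5′ to 3′ on the strand of the gene. They span chr4:76007510-76007759, chr4:76023498-76023747 and chr4:76036071-76036320 on the minus strand and chr2:227813592-227813841 and chr16:57358533-57358782 on the plus strand. For CXCL11, CCL20 and CCL22 the RefSeq start lies inside the gene span of the deposited table.
CXCL9: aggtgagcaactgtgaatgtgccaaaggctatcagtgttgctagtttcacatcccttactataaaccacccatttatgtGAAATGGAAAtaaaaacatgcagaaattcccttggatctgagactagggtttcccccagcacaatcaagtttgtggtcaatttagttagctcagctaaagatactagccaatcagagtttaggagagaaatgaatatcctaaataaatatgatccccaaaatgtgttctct
CXCL10: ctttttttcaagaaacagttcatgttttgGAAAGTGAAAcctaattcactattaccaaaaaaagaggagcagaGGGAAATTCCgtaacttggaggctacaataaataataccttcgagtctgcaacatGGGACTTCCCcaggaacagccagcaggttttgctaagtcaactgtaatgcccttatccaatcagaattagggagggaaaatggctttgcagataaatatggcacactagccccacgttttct
CXCL11: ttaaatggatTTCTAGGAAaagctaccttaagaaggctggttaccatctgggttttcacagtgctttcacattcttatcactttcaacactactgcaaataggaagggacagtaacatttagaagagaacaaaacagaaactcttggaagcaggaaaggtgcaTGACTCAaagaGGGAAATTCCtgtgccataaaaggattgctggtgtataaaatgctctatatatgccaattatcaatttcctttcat
CCL20: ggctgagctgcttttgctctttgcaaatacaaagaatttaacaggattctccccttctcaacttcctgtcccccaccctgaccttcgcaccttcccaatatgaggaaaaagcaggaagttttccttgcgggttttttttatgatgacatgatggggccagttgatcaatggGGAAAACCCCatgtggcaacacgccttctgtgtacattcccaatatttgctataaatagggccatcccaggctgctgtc
CCL22: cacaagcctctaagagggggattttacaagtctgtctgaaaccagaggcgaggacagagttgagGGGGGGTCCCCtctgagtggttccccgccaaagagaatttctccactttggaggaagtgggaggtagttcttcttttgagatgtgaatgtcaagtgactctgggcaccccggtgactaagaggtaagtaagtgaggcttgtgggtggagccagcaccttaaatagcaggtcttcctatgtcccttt

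The search covered 250 bases before and 50 bases from the start, with the first transcribed base counted as 1. CXCL10 held an ISRE at -221 to -212 and 2 κB matches, at -177 to -168 and at -122 to -113. CXCL11 held a κB match at -76 to -67, an AP-1 match at -87 to -81 and GAS matches at -240 to -232 and at 19 to 27, the latter outside the bases printed. CXCL9 had an ISRE at -171 to -162 as its sole match. CCL20 had 1 κB match on the opposite strand at -79 to -70, and CCL22 had 2 overlapping κB matches between -186 and -176. Among all 35116 promoter windows of this length, κB was present in 11.3%, ISRE in 3.57%, GAS in 7.66% and AP-1 in 7.71%. These matches describe letters in the windows. No binding was measured. CXCL16, CX3CL1, CCL2, CCL5 and CCL17 had no sequence in the promoter set used, so their promoters were not examined.

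**Figure D1:**
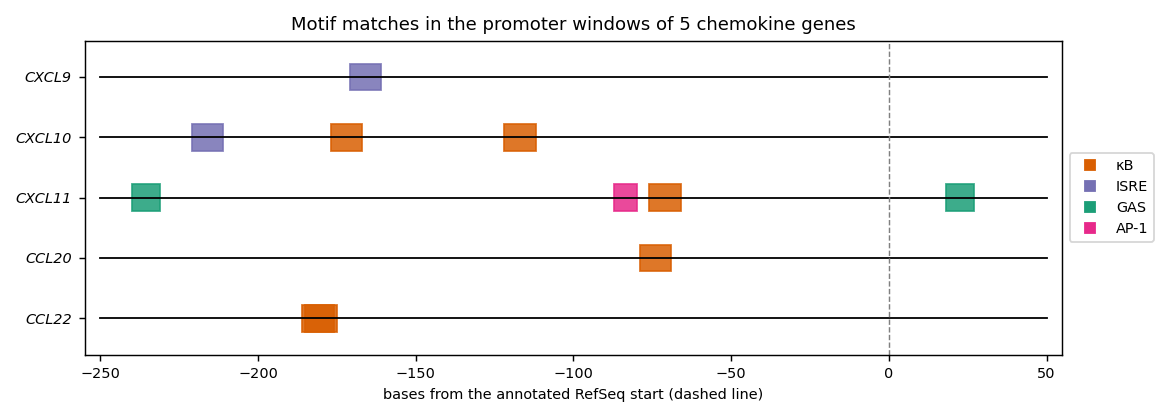
Motif matches in the promoter windows of 5 chemokine genes, drawn by distance in bases from the RefSeq start (dashed line), with κB in orange, ISRE in purple, GAS in green and AP-1 in pink. CXCL10 carries an ISRE and 2 κB matches, whereas CXCL9 carries an ISRE alone.

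Of the 10 chemokines, 8 passed the filter of a mean of 0.1 FPKM over the 12 libraries and were tested. CXCL9 had 0 reads in every library, and CCL2 had 4 reads in knockdown library 1 and 0 elsewhere. CXCL11 and CX3CL1 passed the filter only because of the knockdown libraries, so the counts are also given for the 6 genes that pass without them. Per unit length, CXCL16 was the most abundant in all 4 groups, from a mean of 19.98 FPKM in medium to 45.0 FPKM in the knockdown, and CCL5 came second, from 1.69 to 16.1 FPKM. The next places changed with treatment. In medium CCL22 followed at 1.04 FPKM, while in the knockdown CCL20, CXCL10 and CCL22 lay close together at 5.74 ± 0.222, 5.14 ± 1.06 and 4.62 ± 0.8997 FPKM (SD, n = 3).

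**Figure D2:**
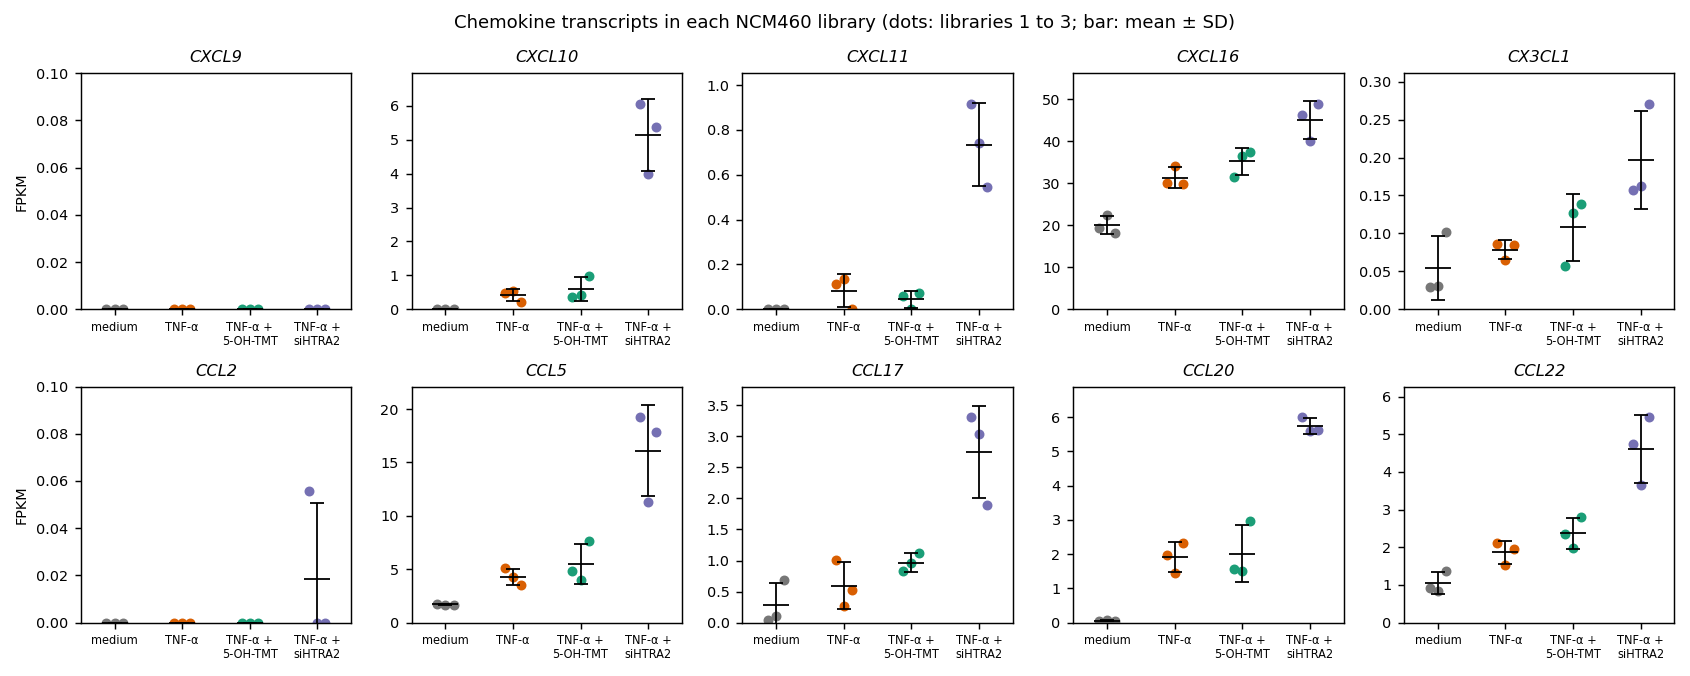
FPKM of each of the 10 chemokines in each library, with dots for libraries 1 to 3 of a group and bars for the mean ± SD (n = 3), each panel on its own axis from 0. All 8 tested genes are highest in the 3 knockdown libraries, CXCL9 stays at 0 throughout, and CCL2 has a single value above 0. CXCL11 and CX3CL1 had to be high in the knockdown to be tested.

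The first comparison asked which of these chemokines respond to TNF-α. TNF-α raised CCL20, CXCL10, CCL5 and CXCL16, and none fell. CCL20, the CCR6 ligand, reached a mean 33.7-fold above medium. CXCL10 went from no reads to a low level, which gives its fold a lower bound alone, CCL5 rose 2.53-fold and the already abundant CXCL16 rose 1.57-fold. Thus 4 of 8 tested members passed an adjusted p under 0.05 in the limma fit, where 3.22% of the 18079 genes tested did so upward, and 4 of the 6 that pass without the knockdown libraries. Every TNF-α library lay above every medium library for 5 of 8, against 11.1% of all genes, and 3 of 8 rose at least 2-fold with an unadjusted p of at most 0.05, against 1.76%. Their median log2 fold change was 0.97, and that of all genes -0.002. Here and below, log2 fold changes are on log2(FPKM + 0.1), which understates the changes of genes at low levels.

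The second comparison asked what 5-OH-TMT changes when it is added to TNF-α. No member passed the test, and neither did nearly any other gene. The count was 0 of 8 in limma, where 0.0332% of all genes were called higher, so it says little about the members. With voom on recovered reads the count was also 0 of 8, where 336 of the 18079 genes were called. The libraries of the groups overlapped for each of the 8, whereas 16.3% of all genes were higher in every 5-OH-TMT library, and 0 of 8 passed the 2-fold rule, which 0.686% of all genes passed. The point estimates ran from -0.29 for CXCL11 to 0.76 for CCL17, and 7 of 8 were above 0. Their median was 0.25, and that of all genes 0. Confidence intervals (95%) left room for changes of different sizes. For CXCL16 the interval was -0.06 to 0.39 on the log2 scale, for CCL20 -0.49 to 0.54, for CCL5 -0.20 to 0.83, for CXCL10 -0.35 to 1.16 and for CCL17 -0.44 to 1.96. Library 3 of the 5-OH-TMT group had the highest value of its group for 8 of 8 members. The summed level of the members without CXCL16 was 15.7 FPKM there, against 10.1 and 9.001 FPKM in the other libraries of the group and 8.25 to 10.9 FPKM with TNF-α alone.

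The third comparison asked what loss of HTRA2 does to cells under TNF-α. All members that TNF-α had raised went up further, and CXCL11, CCL17 and CCL22 rose with them. CXCL10 rose 12.5-fold and CXCL11 8.85-fold over TNF-α alone, CCL17 4.61-fold, CCL5 3.76-fold, CCL20 2.99-fold, CCL22 2.47-fold and CXCL16 1.44-fold. CX3CL1 was the tested member that did not pass. In total 7 of 8 were called higher, against 9.35% of all genes, and 6 of the 6 that pass without the knockdown libraries. For each of the 8, the lowest knockdown library exceeded the highest library with TNF-α alone, against 17.5% of all genes, and 6 of 8 met the 2-fold rule, against 3.08%. CXCL11 and CX3CL1 had to be high here to be tested. Among the other 6, 6 were separate and 5 met the 2-fold rule. The median log2 fold change was 1.71 over the 8 and over the 6, and that of all genes was -0.003. Summed without CXCL16, the members came to 40.4, 28.5 and 37.0 FPKM in knockdown libraries 1 to 3, and library 2, the one with the low mitochondrial share, was the lowest of its group for 5 of 8.

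Markers of other cell types were low but moved with the knockdown. Fibroblast markers (5 genes) summed to between 2.60 and 3.24 FPKM in the knockdown and between 1.001 and 1.46 FPKM in the other groups, nearly all of it COL1A1, with DCN at 0 throughout. The 4 endothelial markers summed to between 2.21 and 3.62 FPKM in the knockdown, between 1.77 and 2.01 FPKM with 5-OH-TMT, between 1.42 and 1.57 FPKM with TNF-α and between 0.491 and 0.597 FPKM in medium, nearly all of the increase being CDH5, with KDR at 0 throughout. The 6 leukocyte markers summed to between 0.417 and 0.885 FPKM in the knockdown, mostly CD14, against 0.320 to 0.455 FPKM with 5-OH-TMT, 0.118 to 0.274 FPKM with TNF-α alone and 0.231 to 0.521 FPKM in medium, and CD3E was at 0 in all 12 libraries. The part of these changes in the chemokine result was not tested. In bulk RNA, more cells of a producing type and more RNA per cell cannot be told apart.

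The knockdown was also compared directly with 5-OH-TMT, since both comparisons above share the TNF-α libraries. CXCL10, CXCL11, CCL5, CCL20, CCL22 and CXCL16 were higher in the knockdown, by 8.64-fold for CXCL10, 2.93-fold for CCL5, 2.85-fold for CCL20, 1.95-fold for CCL22 and 1.28-fold for CXCL16. CXCL11 had a mean at its floor with 5-OH-TMT, 9 reads in all, and the ratio of summed reads corrected for depth was 16.6 with a 95% interval of 8.51 to 37.0 for counting error. That made 6 of 8, against 7.85% of all genes, and 5 of the 6 that pass without the knockdown libraries. All 8 were higher in every knockdown library, against 18.2% of all genes, and 5 of 8 met the 2-fold rule, against 2.18%. Without CXCL11 and CX3CL1, 6 of 6 were separate and 4 of 6 met the 2-fold rule. The median log2 difference was 1.46 over the 8 and over the 6, and 0.01 over all genes. CXCL11 had to be high in the knockdown to be tested, so its call adds no support. For the other 5 called chemokines, the change under HTRA2 knockdown and that under 5-OH-TMT therefore differed beyond the spread between libraries. Even so, the CXCL16 call was lost without single libraries and under 4 other settings, and the CCL22 call without 5-OH-TMT library 2.

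**Figure D3:**
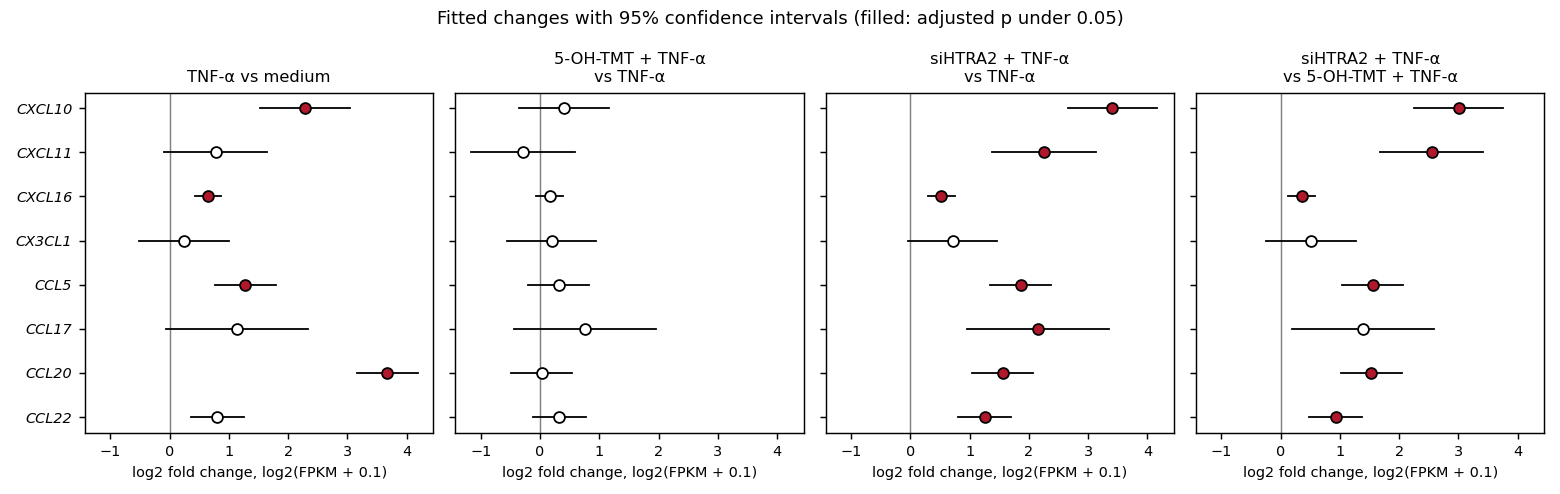
Fitted log2 fold changes on log2(FPKM + 0.1) of the 8 tested chemokines in the 4 comparisons, with bars for 95% confidence intervals and filled points for an adjusted p under 0.05. All 8 intervals for 5-OH-TMT span 0, and CXCL10 and CXCL11 lie farthest to the right in both comparisons with the knockdown. CXCL11 and CX3CL1 passed the filter only through the knockdown libraries, so their points in those comparisons add no support.

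Among the CXCR3 ligands, CXCL10 (1176 bases of exon, ENSG00000169245, chr4:76021117-76023497, minus strand) had 0 reads in each medium library. It had 21, 20 and 9 reads with TNF-α, 15, 18 and 42 with 5-OH-TMT and 257, 169 and 231 in the knockdown. As levels, these were 0.487, 0.546 and 0.205 FPKM, then 0.363, 0.431 and 0.993 FPKM, then 6.06, 3.98 and 5.39 FPKM. The groups were separate except for TNF-α with and without 5-OH-TMT, which overlapped. Against a floor of 3 reads in each medium library, TNF-α left CXCL10 at least 5.35-fold higher, with a log2 fold change of 2.28 (SE 0.34, adjusted p = 0.00197). This call ended with a pseudocount of 1 (log2 fold change 0.49, adjusted p = 0.143). The change with 5-OH-TMT was 0.40 (SE 0.34, adjusted p = 0.530). The rise with the knockdown was 3.41 (SE 0.34, adjusted p = 6.13e-05), which ranked 6 of 18079 genes by fold change, and the difference from 5-OH-TMT was 3.00 (SE 0.34, adjusted p = 0.000264).

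CXCL11 (ENSG00000169248, chr4:76033682-76041415, minus strand) was scarcer. It had 0 reads in medium, 8, 8 and 0 reads with TNF-α, 4, 0 and 5 with 5-OH-TMT and 63, 51 and 38 in the knockdown. The knockdown libraries, at 0.915, 0.741 and 0.546 FPKM, stood clear of all others, none of which exceeded 0.134 FPKM. The difference from TNF-α was 2.26 (SE 0.40, adjusted p = 0.00239) and that from 5-OH-TMT 2.55 (SE 0.40, adjusted p = 0.00180). With a pseudocount of 0.01 the former missed the threshold (3.69, adjusted p = 0.0504). CXCL11 averaged 0.0424 FPKM without the knockdown libraries and passed the filter only through them, so its knockdown calls add no support. The response to TNF-α alone did not pass (0.78, adjusted p = 0.416). CXCL9 (ENSG00000138755, chr4:76001275-76007488, minus strand), the remaining gene of the cluster and the one classically tied to interferon-γ, had 0 reads in all 12 libraries, where 3 reads would have given 0.0294 to 0.0351 FPKM. CXCL10 and CXCL11 lie within the span of ART3 on the opposite strand but share 0 exon bases with it, and ART3 had a mean of 0.0043 FPKM. The library kit does not mark strand.

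Of the membrane-tethered chemokines, CXCL16 (ENSG00000161921, chr17:4733526-4739922, minus strand) is the ligand of CXCR6 on T and natural killer T cells. It stood at 19.3, 22.4 and 18.2 FPKM in medium, 30.0, 34.2 and 29.7 FPKM with TNF-α, 31.5, 36.5 and 37.5 FPKM with 5-OH-TMT and 46.2, 40.1 and 48.8 FPKM in the knockdown. Medium was lowest and the knockdown highest without overlap, and the 5-OH-TMT and TNF-α libraries were interleaved. It carried the most reads of the members, 1661 to 4973 per library, and had the smallest standard error. TNF-α raised it by 0.65 (SE 0.10, adjusted p = 0.00285) and the knockdown by a further 0.52 (SE 0.10, adjusted p = 0.00460). The knockdown exceeded 5-OH-TMT by 0.36 (SE 0.10, adjusted p = 0.0377). This last call was lost on leaving out any of 5 of the 6 libraries compared (all but knockdown library 2, adjusted p 0.0508 to 0.147) and under 4 other settings (0.0621 to 0.0765). CXCL16 shares 85 exon bases, 3.04% of its length, with MED11 on the opposite strand, which had a mean of 5.86 FPKM.

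CX3CL1 (fractalkine, ENSG00000006210, chr16:57372458-57385048, plus strand) acts on monocytes and cytotoxic lymphocytes through CX3CR1. It was scarce, with 6, 6 and 20 reads in medium, 19, 12 and 19 with TNF-α, 12, 27 and 30 with 5-OH-TMT and 34, 35 and 59 in the knockdown. The 3 knockdown libraries were the highest of all 12 at 0.158, 0.162 and 0.271 FPKM, yet the difference from TNF-α did not pass (0.71, SE 0.35, 95% interval -0.04 to 1.47, adjusted p = 0.186). On recovered reads with voom, it did (1.25, adjusted p = 0.0475). CX3CL1 averaged 0.0802 FPKM without the knockdown libraries and passed the filter only through them, so its knockdown values add no support. The response to TNF-α was 0.24 (adjusted p = 0.826).

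CCL20 (ENSG00000115009, chr2:227805739-227817564, plus strand) was close to undetected in medium, with 3, 4 and 2 reads. It rose to 116, 72 and 138 reads with TNF-α (1.98, 1.45 and 2.32 FPKM), stayed at 88, 86 and 170 reads with 5-OH-TMT (1.57, 1.52 and 2.96 FPKM) and reached 345, 322 and 327 reads in the knockdown (5.999, 5.60 and 5.63 FPKM). The knockdown libraries were tightly grouped and above all others, and those with and without 5-OH-TMT were interleaved. With so few reads in medium, the ratio of summed reads corrected for depth was 34.2 with a 95% interval of 17.8 to 75.6, which covers counting error only. The rise with TNF-α was 3.67 (SE 0.24, adjusted p = 2.16e-06), ranking 5 of 18079. The knockdown added 1.56 (SE 0.24, adjusted p = 0.000899). The change with 5-OH-TMT was 0.03 (SE 0.24, adjusted p = 0.964), and its sign turned on single libraries, being -0.27 without 5-OH-TMT library 3 and -0.15 without TNF-α library 2.

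CCL5 (RANTES, ENSG00000271503, chr17:35871491-35880793, minus strand) was at 1.78, 1.63 and 1.68 FPKM in medium, 5.07, 4.26 and 3.53 FPKM with TNF-α, 4.85, 4.002 and 7.63 FPKM with 5-OH-TMT and 19.2, 11.3 and 17.8 FPKM in the knockdown. Each step was free of overlap apart from TNF-α with against without 5-OH-TMT. TNF-α raised it by 1.28 (SE 0.24, adjusted p = 0.00783), the knockdown by a further 1.86 (SE 0.24, adjusted p = 0.000262), and the knockdown exceeded 5-OH-TMT by 1.55 (SE 0.24, adjusted p = 0.00150). CCL2 (ENSG00000108691, chr17:34255218-34257203, plus strand), the main attractant of classical monocytes through CCR2, was at 0 in 11 libraries and at 0.0558 FPKM in knockdown library 1. In a fit without the filter its difference between the knockdown and TNF-α was 0.21 (adjusted p = 0.474).

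The CCR4 ligands CCL17 and CCL22 lie near CX3CL1 on chromosome 16. CCL22 (ENSG00000102962, chr16:57358772-57366190, plus strand) measured 0.916, 0.830 and 1.38 FPKM in medium, 2.11, 1.53 and 1.95 FPKM with TNF-α, 2.34, 1.97 and 2.80 FPKM with 5-OH-TMT and 4.73, 3.66 and 5.45 FPKM in the knockdown. TNF-α libraries all lay above medium, but the change of 0.80 (SE 0.20) had an adjusted p of 0.0510, just short of the threshold. It passed under 4 other settings (adjusted p 0.00561 to 0.0493) and without medium library 3 (1.004, adjusted p = 0.0173). The knockdown raised it by 1.26 (SE 0.20, adjusted p = 0.00142) over TNF-α and by 0.93 (SE 0.20, adjusted p = 0.0118) over 5-OH-TMT, the latter not without 5-OH-TMT library 2 (0.81, adjusted p = 0.0556).

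CCL17 (TARC, ENSG00000102970, chr16:57404767-57416062, plus strand) had the largest standard error of the 8. It had 1, 2 and 14 reads in medium, 23, 5 and 12 with TNF-α, 18, 21 and 25 with 5-OH-TMT and 74, 68 and 43 in the knockdown. Medium library 3 lay within the range of the TNF-α libraries, at 0.691 FPKM against 0.259 to 1.01 FPKM, so these groups overlapped. The TNF-α response of 1.14 (SE 0.55) did not pass (adjusted p = 0.372), although without medium library 3 it was 1.87 (adjusted p = 0.0303). Together with CCL22, this took the count of members raised by TNF-α from 4 to 6. In that fit 518 of the 18079 genes were called higher. The knockdown raised CCL17 by 2.15 (SE 0.55, adjusted p = 0.0186). That call was lost without TNF-α library 2 (1.74, adjusted p = 0.0833), TNF-α library 3 (2.14, adjusted p = 0.0540) or knockdown library 1 (1.9996, adjusted p = 0.0732). Against 5-OH-TMT, the knockdown difference was 1.39 (SE 0.55) with an adjusted p of 0.112. It passed with a pseudocount of 1 (0.91, adjusted p = 0.0153), in a fit to those groups alone (adjusted p = 0.0197) and with voom (1.46, adjusted p = 0.0179).

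Other genes of the chemokine system were read from lists by function. The receptors of these chemokines and the decoy receptors (11 genes) were nearly silent. CXCR6 alone passed the filter, between 0.0442 and 0.181 FPKM, and it passed the test in none of the comparisons, while CXCR3, the receptor for CXCL9, CXCL10 and CXCL11, and CCR6, the receptor for CCL20, were at 0 in all libraries. ACKR2, a decoy receptor that takes up inflammatory CC chemokines, was below the filter and untested. It is named here after its values were seen. Its reads were 7, 5 and 11 in medium, 4, 6 and 4 with TNF-α, 12, 8 and 9 with 5-OH-TMT and 34, 35 and 29 in the knockdown.

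Of the 6 proteases that shed or trim chemokines, 5 were tested, and 2 rose with TNF-α and 4 with the knockdown, where 3.22% and 9.35% of all genes did. MMP9, a gelatinase that cleaves several chemokines, rose by 3.73 with TNF-α (adjusted p = 1.99e-05) and stood at 0.04 in the knockdown against TNF-α (adjusted p = 0.952). ADAM10 and ADAM17, the sheddases of CXCL16 and CX3CL1, rose in the knockdown by 0.47 (adjusted p = 0.00886) and 0.46 (adjusted p = 0.00266). DPP4, which trims the N-terminus of CXCL10 and CXCL11, rose by 1.08 (adjusted p = 0.0136), and FURIN by 0.40 (adjusted p = 0.0316).

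Among 23 signalling genes and transcription factors known to act on chemokine promoters, 22 were tested. With TNF-α, 11 rose and 0 fell, against 3.22% of all genes called higher, led by genes of NF-κB feedback and signalling. TNFAIP3, which encodes the inhibitor A20, rose by 4.43, RELB by 4.18, NFKB2 by 2.40, NFKBIA by 2.17 and IFNGR2 by 0.95 (adjusted p 9.18e-09 to 9.82e-06). In the knockdown, 13 rose and 0 fell, against 9.35% of all genes called higher, and interferon signalling genes were among those with the smallest adjusted p. STAT2 rose by 0.81, IRF7 by 1.23, IFNGR1 by 0.76 and IFNGR2 by 0.77 (adjusted p 1.79e-05 to 6.73e-05). All 4 were also higher than with 5-OH-TMT, a comparison in which 11 of the 22 were called higher, against 7.85% of all genes. IRF7 was at 12.1, 12.4 and 14.4 FPKM with TNF-α and at 32.5, 24.8 and 35.0 FPKM in the knockdown. With 5-OH-TMT 0 of the 22 passed, where 0.0332% of all genes were called higher. Even so, 11 of the 22 were higher in every 5-OH-TMT library than in every library with TNF-α alone, against 16.3% of all genes, and 1 was lower. The smallest adjusted p among them was that of IRF1 (0.31, adjusted p = 0.0946), which is named here after its values were seen.

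Interferon genes themselves were sparse. IFNG had 0 reads in all 12 libraries, and IFNB1 had at most 2 reads in any. Of the 7 interferon genes listed, the 3 type III interferons passed the filter, and all were called higher in the knockdown than with TNF-α, against 9.35% of all genes. IFNL2 and IFNL3 passed the filter only through the knockdown libraries, with means of 0.0347 and 0.0166 FPKM without them, so they were bound to differ and their calls add no support. IFNL1 rose by 1.75 (adjusted p = 0.0197), from 8, 12 and 26 reads to 75, 48 and 47. IFNL2 and IFNL3 differed by 2.09 (adjusted p = 0.0198) and 2.20 (adjusted p = 0.00367), from 0 to 2 reads per library to 22, 10 and 2 reads and 14, 8 and 17 reads. IFNL2 and IFNL3 are near-identical copies, so reads may have been split or lost between them and both values are uncertain. IFNL1 and IFNL3 were also higher than with 5-OH-TMT, by 1.58 (adjusted p = 0.0355) and 2.46 (adjusted p = 0.00293).

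Chemokines outside the 10 gave a mixed picture. Of 6 neutrophil attractants 4 were tested, and CXCL8 and CXCL1 rose both with TNF-α (3.56 and 3.31, adjusted p = 1.07e-06 and 1.55e-07) and in the knockdown (1.96 and 1.74, adjusted p = 9.38e-05 and 2.70e-05), whereas CXCL2 rose with TNF-α (1.25, adjusted p = 0.00762) and stood at -0.03 in the knockdown (adjusted p = 0.960). CXCL8, CXCL1 and CXCL3 were higher in the knockdown than with 5-OH-TMT (2.10, 1.94 and 0.74, adjusted p = 0.000125, 3.15e-05 and 0.0376). CXCL2 was not (-0.12, adjusted p = 0.781). Of 25 further chemokines 5 were tested. CCL28, a mucosal chemokine for IgA-secreting cells, rose in the knockdown by 0.86 (adjusted p = 0.00108). The eotaxins CCL26 and CCL24, which attract eosinophils, were lower in the knockdown than with 5-OH-TMT, by -1.27 (adjusted p = 0.0238) and -1.23 (adjusted p = 0.0339). Against TNF-α alone neither passed (-0.70, adjusted p = 0.171, and -0.95, adjusted p = 0.0821). CCL24 was near the floor, with 7, 3 and 1 reads in the knockdown and 9, 10 and 12 with 5-OH-TMT.

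**Figure D4:**
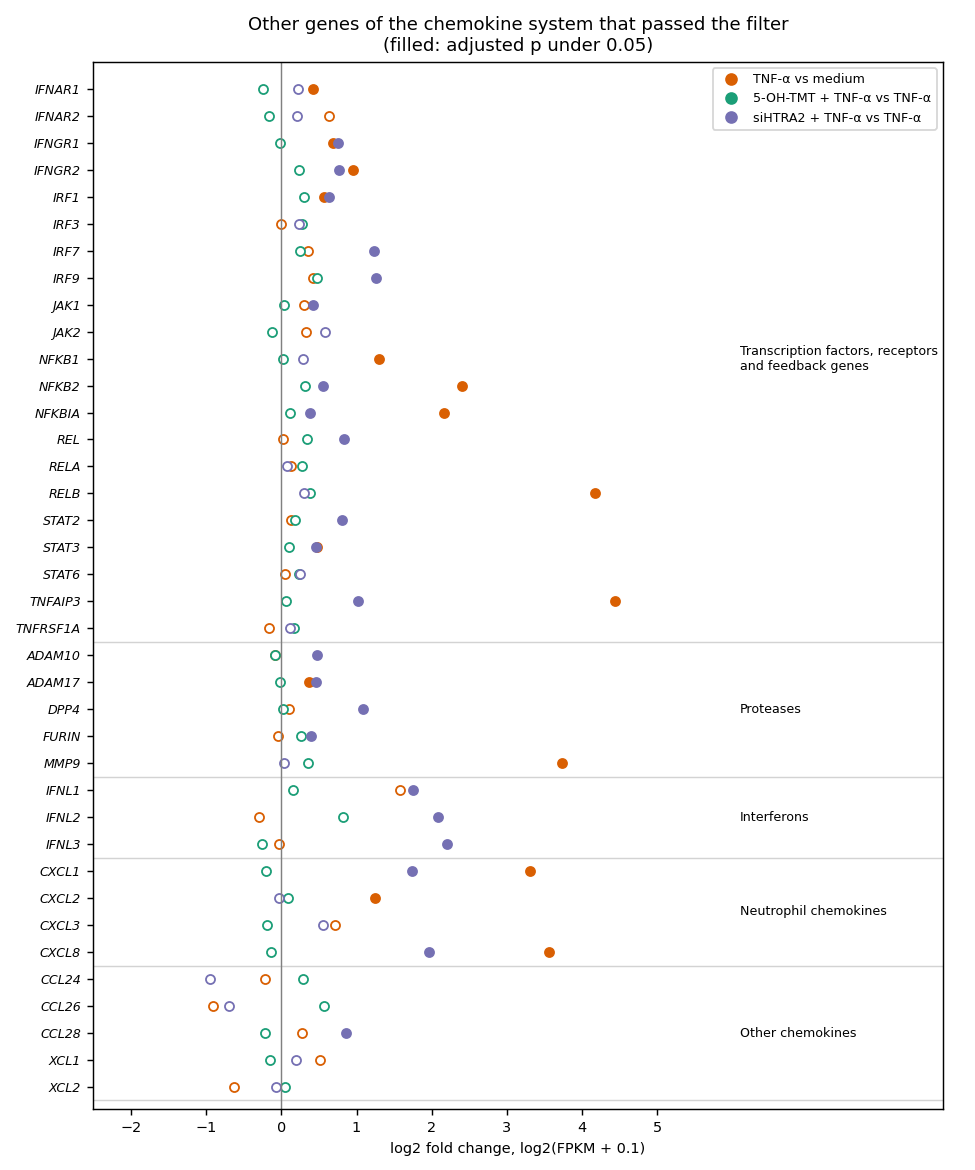
Fitted log2 fold changes on log2(FPKM + 0.1) of the tested signalling genes (1 left out), proteases, interferons and other chemokines, with orange for TNF-α against medium, green for 5-OH-TMT with TNF-α against TNF-α, purple for the HTRA2 knockdown with TNF-α against TNF-α, and filled points for an adjusted p under 0.05. TNFAIP3 and RELB lie farthest right with TNF-α, IFNL1 and IRF7 rise in the knockdown, and no green point is filled. IFNL2 and IFNL3 passed the filter only through the knockdown libraries, so their filled points add no support.

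Patterns over the 12 libraries were compared with those of 11179 other genes that had a mean of at least 1 FPKM, as Pearson correlations of log2(FPKM + 0.1). These describe 4 group levels more than 12 independent points, and no p is given. The genes nearest to CXCL10 were ADAR (r = 0.9895), an interferon-induced RNA editing enzyme, and MARCKSL1 (0.9892). CCL5 lay nearest to OAS3 (0.9893), an interferon-induced antiviral enzyme, and TNC (0.9880). CCL20 lay nearest to NFE2L3 (0.9929), CXCL16 to NECAP2 (0.9883) and TAPBP (0.9828), and CXCL11 to B4GALT5 (0.9812) and CRYBG1 (0.9721). Correlations were lower for CCL22 with FILIP1L (0.9775) and PNRC1 (0.9734), CCL17 with SERTAD4 (0.9502) and FOXO3 (0.9452), and CX3CL1 with FOXA1 (0.9471) and TNFAIP8L1 (0.9190). Among the 8 tested chemokines themselves, the 28 pairs had a median r of 0.8734, from 0.6923 to 0.9902.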

How the data were processed

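RNA of NCM460 cells was sequenced in 12 poly(A) libraries, 3 per group, prepared with a kit that does not mark strand. The authors deposited FPKM per gene and library, with gene lengths. Per the labels, the processing used CASAVA 1.8, HISAT2 2.0.4 and HTSeq 0.9.1 on hg38, and the scaling of the FPKM is not given in the sources used here. Coordinates matched GENCODE 29 for 99.9% of 58735 genes. Groups were taken from the sample labels, and 0 value columns were left unmapped. The labels do not say that libraries came from separate cultures, so p-values measure the spread between these libraries, which may be technical.

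Reads were recovered from the FPKM as whole multiples of the value of 1 read (100% of values whole, tolerance 0.02). They serve as the depth behind low values, with a floor of 3 reads per library for folds, and intervals on them (95%) cover counting error only. The 12 libraries were compared in R 4.3.3 with limma 3.58.1 on log2(FPKM + 0.1), with 1 mean per group, eBayes with trend and Benjamini-Hochberg adjustment over the 18079 genes whose mean reached 0.1 FPKM. Calls were made at an adjusted p under 0.05, two-sided. An exact permutation test of 3 libraries against 3 cannot go below p = 0.1 and was not used for calls. Genes named beyond the 10 chemokines were up to 5 called genes per list and comparison by adjusted p, the 2 most alike genes of each tested chemokine, and HTRA2, apart from 3 genes that are not reported here. The members and lists were chosen with earlier results of these data known. The fit was tested on simulated data. Alternatives covered the pseudocount, the filter, scaling, the samples fitted, the trend, a replicate block, voom and leaving out each library. Summaries and plots used Python 3.11.15, pandas 2.3.3 and matplotlib 3.10.9.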

Additional observations from a re-analysis of the deposited data

How the results depend on the processing

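The count of members called under each of 10 other settings stayed within 1.5 times the reported one. It ran from 3 to 5 for TNF-α against medium, from 6 to 8 for the knockdown against TNF-α and from 5 to 7 for the knockdown against 5-OH-TMT, and it was 0 for 5-OH-TMT against TNF-α. On leaving out 1 library at a time the ranges were 4 to 6, 6 to 7, 4 to 6 and 0. Of 472 recomputed gene values, 445 kept direction and side of the threshold, 15 lost the threshold, 10 gained it and 2 reversed. The reversals were both for CCL20 with 5-OH-TMT, which ran from -0.27 to 0.19 over the libraries left out, and the cause was not tested. With a replicate block the counts were 5, 0, 7 and 5, where 500, 1, 1492 and 1114 of the 18079 genes were called higher. The correlations of deviations between same-numbered libraries ran from -0.2118 to 0.1513 and were not over 0.1 in every pair of any comparison. The main fit used no pairing. For TNF-α against medium, the same-numbered pairs ran from 0.0647 to 0.1513 and the other pairs from -0.1795 to 0.0409. Whether same-numbered libraries share more than a number was not tested. Over all genes, 7 were called for 5-OH-TMT against TNF-α, but 127 with a filter at 1 FPKM, 336 with voom and 911 in a fit to those 2 groups alone, none of them members. Voom on recovered reads was chosen after seeing the data. The planned count-based alternatives were not run, because the deposited values are FPKM. The median log2 fold change of all genes stayed between -0.03 and 0.01 over settings. Depth limits CXCL9, CCL2, CXCL11, CX3CL1 and CCL17 most, each with under 75 reads in every library.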
